A study of Oryza sativa with 28 samples.

Results

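Class B and class C heat shock factors (HSFs) were followed in young rice panicles through 10 genes that the count and FPKM tables list by locus. They were chosen by family membership and locus identifier, with earlier results of these data known but no value used in the rule: HsfB1, HsfB2a to HsfB2c, HsfB4a to HsfB4d, HsfC1a and HsfC1b, out of 47919 genes in the tables. RNA-seq libraries came from Wuxiang S (WXS), an indica rice line with photo-thermosensitive genic male sterility that derives from a mutant tms5 locus, and every group carried this genotype. WXS(F) plants were moved, before meiosis, to a growth chamber with a mean of 22°C, 14 h of light and 10 h of dark and 77% relative humidity, and became male fertile. WXS(S) plants stayed in the summer paddy field under the same day length and were male sterile. The labels leave the field temperature blank, but by the study's methods the field was warmer than the chamber, so WXS(F) is the cooler group. Panicles were taken at the uninucleate period (P4) and at meiosis (P3), which gave the groups FP4, SP4, FP3 and SP3 with 3 biological replicates each. Fertility type, temperature and place of growth changed together, so their contributions cannot be told apart, and no fertile line without the tms5 mutation is part of the 12 libraries.

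HSFs are transcription factors that bind heat shock elements in the promoters of chaperone genes and other stress genes. Class A members carry activation motifs and switch these genes on. Class B members lack such motifs, and several of them act as repressors or attenuators of the response, while class C members also lack the activation motifs and are less well understood. In Arabidopsis, HsfB1 and its relative HsfB2b repress heat-inducible HSF genes, and HsfB4 (SCHIZORIZA) controls the fate of ground tissue stem cells in the root rather than the heat response. In rice, HsfB2b has been linked to drought and salt tolerance and HsfC1b to salt stress.

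Total counts per library ranged from 30577833 to 51193158. The median Pearson's r of log2 CPM with the other libraries of its own group was 0.952 to 0.967 per library, against at most 0.914 with any library outside the group. The lowest median belonged to SP3 replicate 3, which had the fewest counts and the most genes above 0 among the SP3 libraries (34782, against 28044 and 29014). In 8 of the 10 genes it also held the lowest FPKM of the 3 SP3 libraries, a count that was not made over all genes. None of the 30 fold changes of the 10 genes that rest on SP3 gained or lost its call without this library. Levels are given as FPKM, in which fragments are normalised by gene length and by sequencing depth, so that different genes can be set beside each other. Fold changes are edgeR estimates on the counts, and a gene was called when its log2 fold change exceeded 1 in size with a Benjamini-Hochberg adjusted p below 0.05 over all genes tested. All 10 genes passed the filter on low counts in each comparison. The replicates are described as biological, without a statement on how plants were pooled, so p-values measure the spread between these libraries.

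At both stages the called genes divided by subclass, although at P4 the lower side was HsfB4c alone and 3 HsfB4 genes were not called. Genes called higher in WXS(F) were HsfB1, HsfB2 or HsfC1 genes, and genes called lower were HsfB4 genes. Between FP4 and SP4, 5 of the 10 genes were called higher and 1 lower, where 22.3% of the 24645 genes tested were called in either direction (15.4% higher and 6.87% lower). Between FP3 and SP3, 5 were called higher and 3 lower, against 21.5% of 24405 genes (14.8% higher and 6.74% lower). The median log2 fold change of the 10 genes was 0.99 at P4 and 0.95 at P3, while that of all genes tested was 0.00 at P4 and 0.04 at P3. FPKM values of the 2 types did not overlap for 8 genes at P4, where this held for 58.4% of all genes tested, and for 9 genes at P3, where it held for 50.7%. On the log2(FPKM + 1) scale, where low levels are compressed, HsfB2a (0.69), HsfC1a (0.60) and HsfB4c (-0.86) fell short of the required fold at P4, as did HsfB2a (0.77) and HsfB4d (-0.70) at P3 (limma). These measurements are of whole panicles, in which fewer cells of a type and less RNA per cell cannot be told apart.

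**Figure D1:**
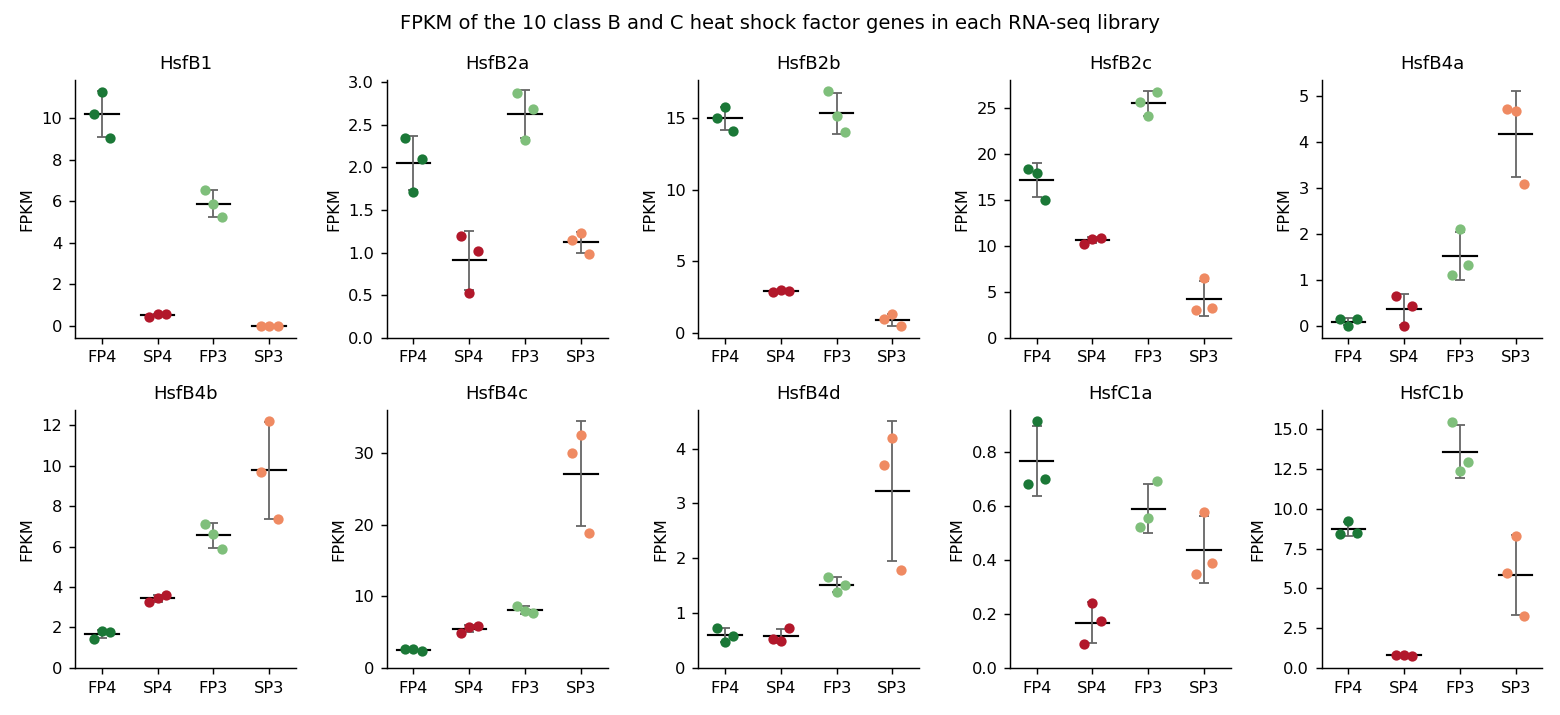
FPKM (vertical axis, linear) of each of the 10 genes in the 12 libraries, with groups FP4, SP4, FP3 and SP3 along the horizontal axis. Points are libraries, black lines are group means and grey bars are 1 SD (n = 3). HsfB1 and HsfB2b stand high in both WXS(F) groups and lowest in SP3, whereas the 4 HsfB4 genes have their highest mean in SP3.

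HsfB1 (LOC_Os09g28354), whose Arabidopsis counterpart represses heat-inducible HSF genes, showed the widest range of the 10 genes. Its FPKM was 10.2, 11.3 and 9.05 in FP4, against 0.448, 0.558 and 0.564 in SP4. At P3 it was 6.54, 5.87 and 5.26 in FP3, against 0.0173, 0.0184 and 0 in SP3. None of the 4 groups overlapped, and the order was FP4, FP3, SP4 and SP3. The counts behind the lowest group were 2, 2 and 0, and a count of 0 allows up to 3 counts. The FP3 libraries together held 2146 counts and the SP3 libraries 4, which is a ratio of 479.8 after scaling to library size (95% exact interval 187 to 1762, counting error only). These counts are estimates, so the interval is approximate. In log2 units, FP4 exceeded SP4 by 4.28 (adjusted p = 1.87e-06 by edgeR, SE 0.123) and FP3 exceeded SP3 by 8.85 (adjusted p = 3.1e-05 by edgeR, SE 0.403). The SE is the fold change divided by the square root of its F statistic. For HsfB1, every SE that involves SP3, with its 4 counts, is smaller than counting error alone would give and understates the uncertainty. The value at P3 depends on the small number that edgeR adds to each count, and it was 8.40 without SP3 replicate 3, 5.74 on the log2(FPKM + 0.1) scale and 2.76 on the log2(FPKM + 1) scale (limma). By mean FPKM, HsfB1 exceeded 84.2% of the genes with FPKM above 0 in FP4 and 40.0% in SP4, and 73.2% in FP3 against 16.04% in SP3. The set of genes above 0 differs between groups, so these ranks do not share 1 scale. Libraries held 34338 to 35760 genes with counts above 0 in FP4 and 27996 to 29657 in SP4. At P3 it was 30018 to 31587 in FP3 and 28044 to 34782 in SP3.

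The 3 HsfB2 genes did not overlap between the types at either stage, and every WXS(F) library was above every WXS(S) library of its stage. HsfB2b (LOC_Os08g43334) had 15.03, 15.7 and 14.1 FPKM in FP4, against 2.83, 3.03 and 2.94 FPKM in SP4. In FP3 it had 16.8, 15.1 and 14.0 FPKM, against 0.949, 1.29 and 0.490 FPKM in SP3. Its levels in the WXS(F) groups overlapped with each other, and both lay far above SP4, which in turn lay above SP3. WXS(F) was higher by 2.37 log2 units at P4 (adjusted p = 1.87e-06 by edgeR, SE 0.0679) and 4.18 at P3 (adjusted p = 8.27e-05 by edgeR, SE 0.252), that is 5.16-fold and 18.1-fold.

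HsfB2c (LOC_Os09g35790) was the most abundant of the 10 genes in FP4, FP3 and SP4. It reached 18.4, 18.0 and 15.03 FPKM in FP4, against 10.2, 10.7 and 10.8 FPKM in SP4, and 25.7, 24.1 and 26.7 FPKM in FP3, against 3.05, 6.46 and 3.25 FPKM in SP3. No groups overlapped. It was called higher at P3, by 2.75 log2 units (adjusted p = 0.000526 by edgeR, SE 0.274). At P4 FP4 exceeded SP4 by 0.78 log2 units (adjusted p = 8.38e-05 by edgeR, SE 0.0589), which is below the fold required for a call although every FP4 library was above every SP4 library.

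HsfB2a (LOC_Os04g48030) was the weakest of the HsfB2 genes in FP4, SP4 and FP3, but lay above the mean of HsfB2b in SP3, with means of 2.05 ± 0.321 FPKM in FP4 and 0.909 ± 0.346 in SP4, and of 2.63 ± 0.282 in FP3 and 1.12 ± 0.126 in SP3 (SD, n = 3). It was called higher at P3, by 1.31 log2 units (adjusted p = 0.00124 by edgeR, SE 0.163). The call at P4 (1.19, adjusted p = 0.0184 by edgeR, SE 0.313) was lost without FP4 replicate 1 (adjusted p = 0.0574) or FP4 replicate 3 (adjusted p = 0.0571), and without SP4 replicate 2 the log2 fold change was 0.92.

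HsfC1b (LOC_Os01g53220) was the better expressed HsfC1 gene. It had 8.44, 9.24 and 8.47 FPKM in FP4, against 0.828, 0.806 and 0.734 FPKM in SP4, and 15.5, 12.4 and 12.9 FPKM in FP3, against 5.94, 8.29 and 3.27 FPKM in SP3. The 4 groups kept apart in the order FP3, FP4, SP3 and SP4, so that here the sterile panicles at P4, and not those at P3, were the lowest. It was 11.1-fold higher in WXS(F) at P4 (log2 fold change 3.47, adjusted p = 3.31e-06 by edgeR, SE 0.120) and 2.54-fold higher at P3 (1.35, adjusted p = 0.00489 by edgeR, SE 0.238). HsfC1a (LOC_Os01g43590) was scarce, with 69, 101 and 85 counts in FP4 and 8, 22 and 18 in SP4, and with 64, 64 and 77 counts in FP3 and 38, 52 and 36 in SP3. Its FPKM was 0.681, 0.915 and 0.701 in FP4, against 0.0879, 0.241 and 0.173 in SP4, and 0.524, 0.555 and 0.692 in FP3, against 0.350, 0.579 and 0.388 in SP3. It was called higher at P4, where the types did not overlap (log2 fold change 2.19, adjusted p = 0.00338 by edgeR, SE 0.382). At P3 its FPKM overlapped between the types and FP3 exceeded SP3 by 0.59 log2 units, which was not called (adjusted p = 0.15 by edgeR, SE 0.290).

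The 4 HsfB4 genes had their highest mean in SP3 and the next in FP3, with both P4 groups below. HsfB4c (LOC_Os09g28200) was the strongest, at 2.70, 2.59 and 2.39 FPKM in FP4, against 4.93, 5.71 and 5.84 FPKM in SP4. At P3 it had 8.68, 8.03 and 7.65 FPKM in FP3, against 30.1, 32.6 and 18.8 FPKM in SP3. No group overlapped another, and in SP3 HsfB4c was the most abundant of the 10 genes, above 93.4% of the genes with FPKM above 0. It was 2.11-fold lower in WXS(F) at P4 (log2 fold change -1.08, adjusted p = 0.000169 by edgeR, SE 0.0955) and 3.10-fold lower at P3 (-1.63, adjusted p = 0.000166 by edgeR, SE 0.119). Without SP3 replicate 3, the value at P3 was -1.81.

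HsfB4b (LOC_Os07g44690) stood close to the threshold, with 1.45, 1.84 and 1.77 FPKM in FP4, against 3.27, 3.45 and 3.59 FPKM in SP4. Its log2 fold change at P4 was -0.998 (adjusted p = 0.00146 by edgeR, SE 0.143), just short of a call, and it passed 1 when FP4 replicate 2, FP4 replicate 3 or SP4 replicate 1 was left out (-1.04, -1.08 and -1.03). At P3 it averaged 6.56 ± 0.620 FPKM in FP3 and 9.77 ± 2.42 FPKM in SP3, and the contrast of -0.47 log2 units was below the required fold (adjusted p = 0.0228 by edgeR, SE 0.126). The types did not overlap at either stage.

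HsfB4d (LOC_Os03g25120) averaged 0.597 ± 0.134 FPKM in FP4 and 0.582 ± 0.126 FPKM in SP4, and these libraries overlapped (log2 fold change 0.06, adjusted p = 0.862 by edgeR, SE 0.256). At P3 it averaged 1.51 ± 0.138 FPKM in FP3 and 3.23 ± 1.28 FPKM in SP3. Its call as lower at P3 rested on a log2 fold change of -1.003 (adjusted p = 0.0128 by edgeR, SE 0.228) and was lost without FP3 replicate 2 (adjusted p = 0.0537), SP3 replicate 1 (log2 fold change -0.98) or SP3 replicate 2 (log2 fold change -0.91).

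HsfB4a (LOC_Os08g36700) had the fewest counts of the subclass, with 11, 0 and 13 counts in FP4 and 43, 0 and 32 in SP4, and with 98, 175 and 107 counts in FP3 and 374, 347 and 200 in SP3. In FPKM, it reached 1.11, 2.10 and 1.33 in FP3, against 4.72, 4.68 and 3.09 in SP3, which did not overlap. Replicate 2 was listed at 0 in both P4 groups, which allows up to 3 counts, although the other SP4 libraries held at least 30. Such a 0 occurred for 36 genes in SP4 replicate 2 and for 27 to 71 genes in the other 11 libraries, with at least 30 counts in both other replicates. At P3 HsfB4a was called lower in WXS(F) (log2 fold change -1.35, adjusted p = 0.00778 by edgeR, SE 0.269), but not in a model of all 12 libraries (adjusted p = 0.234). At P4 the libraries overlapped, and its log2 fold change of -1.81 had an SE of 1.38 (adjusted p = 0.318, edgeR).

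**Figure D2:**
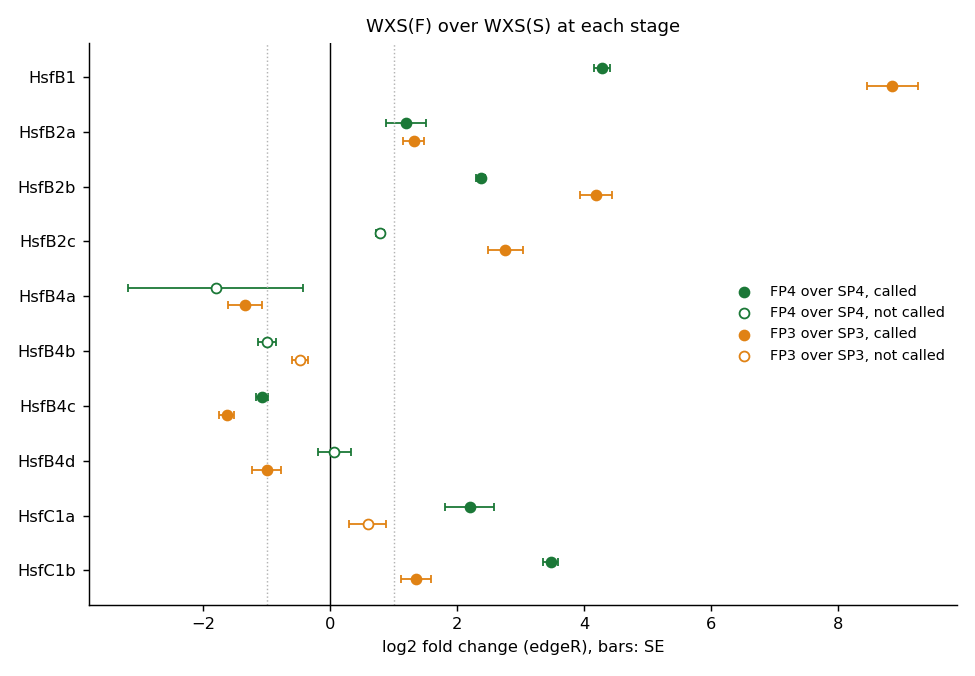
Log2 fold change of WXS(F) over WXS(S) (horizontal axis) for each gene (vertical axis), with FP4 over SP4 in green and FP3 over SP3 in orange. Bars are SEs, filled points were called, open points were not, and dotted lines mark a log2 fold change of 1 in either direction. The bar of HsfB1 at P3 is narrower than its counting error. HsfB1 lies farthest to the right, at 4.28 and 8.85, and HsfB4c is called on the left at both stages.

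The balance of the 10 genes can be given within a library, as the share of each subclass in their summed FPKM. The 2 class C genes of subclass C2 are not among them. Their mean summed FPKM was 6.11 in FP4 and 5.83 in SP4, and 9.42 in FP3 and 9.06 in SP3. The sum of the 10 genes averaged 58.7 ± 3.87 FPKM in FP4 and 25.8 ± 0.954 in SP4, and 81.2 ± 4.60 in FP3 and 56.9 ± 16.2 in SP3 (SD, n = 3). HsfB4 genes made up 8.37%, 7.93% and 9.01% of it in FP4, against 37.5%, 37.8% and 39.5% in SP4. At P3 they made up 21.5%, 23.1% and 20.8% in FP3, against 80.8%, 75.0% and 78.8% in SP3. In SP3 the HsfB4 genes thus held most of the sum of the 10 genes in every library, SP3 replicate 3 included. In the other groups the HsfB2 genes held the largest share. The HsfB2 share was 58.1% ± 1.19 in FP4 and 56.0% ± 0.983 in SP4, and 53.5% ± 1.46 in FP3 against 11.05% ± 2.13 in SP3. HsfB1 alone contributed 17.3% ± 0.842 in FP4 and 2.03% ± 0.205 in SP4, and 7.24% ± 0.485 in FP3 and 0.0183% ± 0.0159 in SP3. The HsfC1 genes contributed 16.2% ± 0.885 in FP4 and 3.72% ± 0.362 in SP4, and 17.4% ± 1.01 in FP3 and 10.7% ± 1.57 in SP3.

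**Figure D3:**
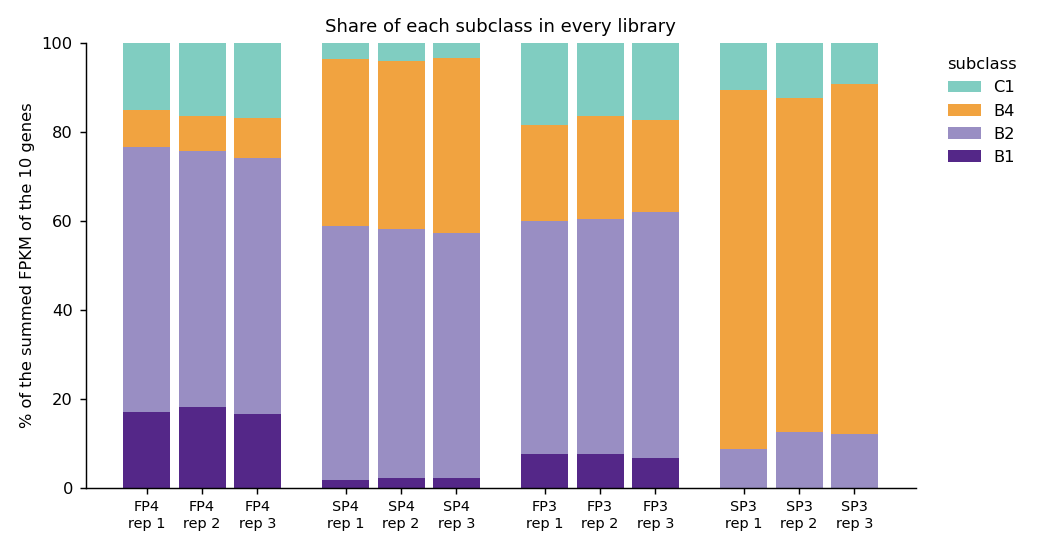
Share (vertical axis, %) of subclasses B1, B2, B4 and C1 in the summed FPKM of the 10 genes, with 1 bar per library and the groups FP4, SP4, FP3 and SP3 from left to right. The B4 block takes 75.0% to 80.8% of the bar in SP3 and 7.93% to 9.01% in FP4.

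Comparing P4 with P3 within each type asked how these genes moved between the stages. In WXS(S) the study saw abnormal meiosis with aberrant tetrads and microspores. The step from SP3 to SP4 therefore need not match that from FP3 to FP4. In WXS(F), 4 genes were called lower at P4 and they were the 4 HsfB4 genes, where 19% of the 24926 genes tested were called (12.9% higher and 6.13% lower). No gene was called higher by edgeR, DESeq2 or limma. In that direction 1 (HsfB1) had an unadjusted p below 0.05 by edgeR, against 7234 of the 24926 genes tested. In WXS(S), 3 genes were called higher and 5 lower, against 19.7% of 23601 genes (12.8% higher and 6.85% lower). The 3 were HsfB1, HsfB2b and HsfB2c, and the 5 were the HsfB4 genes and HsfC1b. The median log2 fold change of the 10 genes was -0.54 in WXS(F) and -1.30 in WXS(S), while that of all genes tested was -0.02 in WXS(F) and 0.03 in WXS(S). FPKM did not overlap between the stages for 7 of the 10 genes in WXS(F), where this held for 57.5% of all genes tested, and for 9 in WXS(S), where it held for 48.7%.

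The fall of the HsfB4 genes appeared in both types. HsfB4c fell 3.07-fold in FP4 relative to FP3 (log2 fold change -1.62, adjusted p = 7.86e-06 by edgeR, SE 0.0678) and 4.56-fold in SP4 relative to SP3 (-2.19, adjusted p = 0.000122 by edgeR, SE 0.135). HsfB4b fell 3.74-fold in WXS(F) and 2.63-fold in WXS(S), and HsfB4d 2.44-fold in WXS(F) and 5.15-fold in WXS(S). HsfB4a had log2 fold changes of -3.84 in WXS(F) (adjusted p = 0.00976, edgeR) and -3.40 in WXS(S) (adjusted p = 0.0316, edgeR). The call in WXS(S) was lost when SP4 replicate 1, SP4 replicate 3, SP3 replicate 1 or SP3 replicate 2 was left out (adjusted p = 0.0503, 0.0884, 0.0754 and 0.0717).

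The genes that were high in WXS(F) moved otherwise. HsfB1 had log2 fold changes of 0.83 in FP4 relative to FP3 (adjusted p = 0.000397 by edgeR, SE 0.0875) and 5.396 in SP4 relative to SP3 (adjusted p = 0.001 by edgeR, SE 0.605), and the first is below the fold required. The second rests on 157 counts in SP4 and 4 in SP3, a ratio of 43.3 after scaling (95% exact interval 16.6 to 161, counting error only), and was 4.93 without SP3 replicate 3 and 2.48 on the log2(FPKM + 0.1) scale (limma). HsfB2b had log2 fold changes of 0.01 in WXS(F) (adjusted p = 0.897 by edgeR, SE 0.0610) and 1.81 in WXS(S) (adjusted p = 0.00285 by edgeR, SE 0.268). HsfB2c had -0.50 in WXS(F) and 1.46 in WXS(S), where it was called (adjusted p = 0.00611, edgeR). HsfC1b fell 6.64-fold in WXS(S) (log2 fold change -2.73, adjusted p = 0.000696 by edgeR, SE 0.276) and had -0.59 in WXS(F) (adjusted p = 0.00242 by edgeR, SE 0.0944). On the log2(FPKM + 1) scale (limma), HsfB1 in WXS(S) and HsfB4d in WXS(F) fell short of the required fold (0.59 and -0.66). HsfB2a was not called in either type, and HsfC1a had log2 fold changes of 0.42 in WXS(F) and -1.21 in WXS(S) (adjusted p = 0.166 and 0.0711, edgeR).

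**Figure D4:**
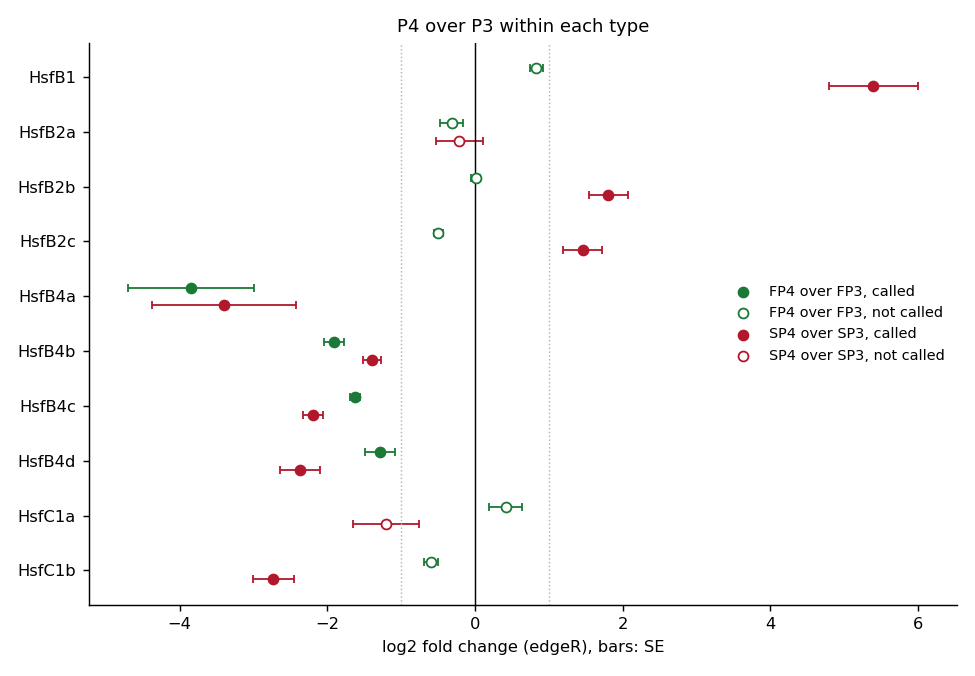
Log2 fold change of P4 over P3 (horizontal axis) for each gene (vertical axis), with FP4 over FP3 in green and SP4 over SP3 in red. Bars are SEs, filled points were called and open points were not. The bar of HsfB1 in WXS(S) is narrower than its counting error. All HsfB4 genes lie left of -1 in both types, while HsfB1, HsfB2b and HsfB2c lie right of 1 in WXS(S) only.

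Whether the difference between the types changed with stage was tested as the interaction of type and stage in a model of all 12 libraries, as the log2 fold change of FP4 over SP4 minus that of FP3 over SP3. Of the 10 genes, 3 were called higher and 3 lower, where 9.87% of 26392 genes were called (3.26% higher and 6.62% lower). The difference was smaller at P4 for HsfB1 (-4.50, adjusted p = 2.61e-05, SE 0.389), HsfB2b (-1.74, adjusted p = 0.00111, SE 0.262) and HsfB2c (-1.91, adjusted p = 0.00125, SE 0.293). It was larger at P4 for HsfC1b (log2 fold change 2.19, adjusted p = 0.00059, SE 0.298, all from edgeR). HsfC1a (1.66, adjusted p = 0.0349 by edgeR, SE 0.484) and HsfB4d (1.13, adjusted p = 0.045 by edgeR, SE 0.350) were also called higher. For HsfC1a the difference was larger at P4. For HsfB4d it was smaller there, with log2 fold changes of -1.003 at P3 and 0.06 at P4. HsfB2a, HsfB4a, HsfB4b and HsfB4c were not called, with values from -0.46 to 0.61. Without 1 library at a time, the adjusted p of HsfC1a exceeded 0.05 for 8 of 12 libraries and that of HsfB4d for 9 of 12, and both also lost the call with library totals in place of TMM factors (adjusted p = 0.0721 and 0.0797, edgeR). For HsfB1, the size depends on the floor in SP3, and the SE is below the counting error there. Its interaction was -1.70 on the log2(FPKM + 0.1) scale (adjusted p = 0.000608, limma) and 0.11 on the log2(FPKM + 1) scale (adjusted p = 0.67, limma).

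HsfB4c and HsfB1 lie near each other on chromosome 9. By name, 8 of the 10 genes matched a RefSeq gene of assembly ASM3414082v1, and 8 genes lay between this pair there, 7 of them protein-coding. In the count table, whose locus numbers follow position, 11 loci lay between the pair. Of these, 7 were tested at P4, where 3 were called higher in FP4 (15.4% of all genes were) and 0 lower (6.87% were). An unadjusted p below 0.05 (edgeR) was found for 3 higher and 3 lower, against 7534 and 6819 of all 24645 genes tested. At P3, 6 were tested and none was called by edgeR, where 21.5% of all genes tested were called. An unadjusted p below 0.05 (edgeR) was found for 2 higher and 1 lower, against 6778 and 5642 of all 24405 genes tested. So few loci cannot show a departure from these shares. HsfB1 itself was called higher and HsfB4c lower in FP3.

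The other genes of the pathway were counted from lists of loci known from general knowledge of rice, since the files carry no gene names. Of 12 class A HSF genes tested out of 13 listed, 2 were called higher in FP4 than in SP4 and 3 higher in FP3 than in SP3, with median log2 fold changes of 0.38 at P4 and 0.54 at P3. The count at P4 was close to the 15.4% of all genes that were called higher. None was called lower by edgeR at either stage, where 6.87% of all genes tested were at P4 and 6.74% at P3. With 12 genes tested, a count of 0 is close to these shares. In that direction 0 at P4 and 0 at P3 had an unadjusted p below 0.05 (edgeR). Over all genes tested, 6819 of 24645 did at P4 and 5642 of 24405 at P3. The 2 class C genes of subclass C2 were not called by edgeR at either stage, with an unadjusted p below 0.05 for 0 at P4 and for 1, lower in FP3, at P3. Small heat shock protein genes, chaperones that HSFs drive under heat, were called higher for 10 of 13 tested at P3 (median 3.23), and at P4 4 were called higher and 1 lower (median 0.65). Of 10 genes for HSP101, HSP90 and HSP70 chaperones, 4 were called higher at P4 (median 0.92) and 7 at P3 (median 1.85). Over all genes tested, 15.4% were called higher at P4 and 14.8% at P3, and 6.87% were called lower at P4 and 6.74% at P3. A relation between the lists and the 10 genes was not tested.

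**Figure D5:**
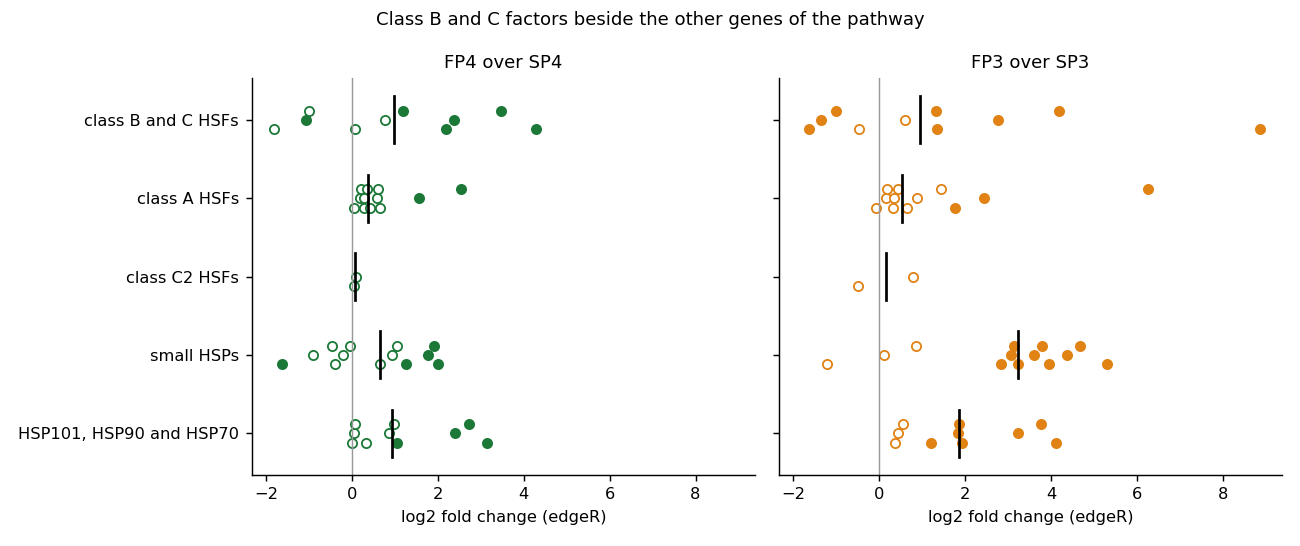
Log2 fold change (horizontal axis) of every tested gene in 5 lists (vertical axis) for FP4 over SP4 (left, green) and FP3 over SP3 (right, orange). Points are genes, filled where called, and black lines are medians. The medians of the small heat shock protein genes are 0.65 at P4 and 3.23 at P3, and the class B and C factors spread to both sides of 0.

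Marker genes of cell types that a young panicle can hold also differed between the groups. All 8 tapetum markers and all 8 meiocyte markers were above 0 in every library of every group. The summed FPKM of the tapetum markers was 793 to 849 in FP4 and 64.0 to 72.9 in SP4, and 45.4 to 55.5 in FP3 and 33.9 to 47.8 in SP3. That of the meiocyte markers was 17.0 to 19.0 in FP4 and 41.9 to 48.5 in SP4, and 34.0 to 40.0 in FP3 and 63.6 to 81.4 in SP3. Of its mean, 1 locus (LOC_Os03g58600, singled out after its values were seen) gave 5.61 of 17.8 FPKM in FP4 and 23.9 of 45.8 in SP4. At P3 this locus gave 20.5 of 37.2 FPKM in FP3 and 49.5 of 75.4 in SP3. In FP4, 1 tapetum locus (LOC_Os11g37280, singled out after its values were seen) gave 623 of the mean of 820 FPKM, and at P3 3 of the 8 were called higher and 3 lower. The sum of the 3 green tissue markers was 348 to 376 in FP4 and 164 to 192 in SP4, and 63.5 to 68.0 in FP3 and 30.5 to 60.0 in SP3. Most of it came from 1 locus (LOC_Os01g41710, also singled out after its values were seen), with means of 351 FPKM in FP4 and 161 in SP4, and at both stages 1 of the 3 was called higher in WXS(F) and 1 lower. At both stages 4 of the 8 meiocyte markers were called lower in WXS(F), and at P4 4 of the 8 tapetum markers were called higher and 2 lower. Over all genes tested, 15.4% were called higher and 6.87% lower at P4, and 14.8% higher and 6.74% lower at P3. The 6 floral organ MADS genes, which mark the labelled tissue, were also above 0 in every library, with 4 called lower in FP3 than in SP3. The part of these markers in the results was not tested.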

How the data were processed

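The series holds 12 RNA-seq, 8 ATAC-seq and 8 ChIP-seq samples of young panicles, and the 12 RNA-seq libraries were used. The authors made strand-specific libraries, aligned reads to MSU7 with HISAT2 and deposited estimated counts per gene from StringTie as whole numbers, and FPKM (versions are not given in the sources used here). Total counts of 30577833 to 51193158 per library set the counting precision. Counts were analysed with edgeR 4.0.16 (R 4.3.3; filterByExpr with a minimum count of 10, TMM, glmQLFit and glmQLFTest), each pairwise comparison on its own libraries and the interaction on all 12. Calls needed a log2 fold change above 1 in size and a Benjamini-Hochberg adjusted p below 0.05. Permuting 3 libraries against 3 gives an exact p of at least 0.1 and was not used. The test was tested on simulated data. The alternatives tried were limma 3.58.1 on log2(FPKM + 1) and log2(FPKM + 0.1), DESeq2 1.42.0, scaling by library totals in place of TMM, an unfiltered table, a block for the replicate number, a joint model of all libraries and the removal of each library in turn.

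All 10 members are named in the text, and other lists were given as counts, medians or, for markers, summed FPKM. Single marker loci that gave the largest part of a sum were named after their values were seen. The members and lists were chosen with earlier results of these data known. Replicates of a group differed by more than sampling noise (the smallest chi-square between a pair was 55.9 per degree of freedom) and were counted as separate samples. All columns matched a sample. ATAC-seq peaks at these genes were not analysed here, because no MSU7 annotation was used, and no sequences are shown for the same reason. Python 3.11.15, pandas 2.3.3 and matplotlib 3.10.9 made the other tables and figures.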

Additional observations from a re-analysis of the deposited data

Results flagged for a closer look

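For 6 genes the type difference itself was called as differing between P4 and P3, by the edgeR interaction test described above (12 libraries, adjusted over 26392 genes). The interaction log2 fold changes were -4.50 for HsfB1, -1.74 for HsfB2b and -1.91 for HsfB2c, whose higher level in WXS(F) was less pronounced at P4. They were 1.13 for HsfB4d, 1.66 for HsfC1a and 2.19 for HsfC1b, with the sign of a relatively higher level in WXS(F) at P4. Those of HsfB4d and HsfC1a had adjusted p-values of 0.045 and 0.0349 and lost the call for 9 and 8 of the 12 libraries when 1 was left out. That of HsfB1 was 0.11 (adjusted p = 0.67, limma) on the log2(FPKM + 1) scale. Single libraries far from the rest of their group were not tested for, because each group has 3 libraries.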

How the results depend on the processing

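Of 700 values of single genes under the alternatives, 627 kept their direction and their side of the threshold, 46 lost a call, 8 gained one and 19 changed sign. The count of genes called lower in FP4 relative to SP4 was 2 with library totals, with no filter and with the replicate block, in place of 1, and 0 with limma on log2(FPKM + 1), where the count called higher was 3 in place of 5. Leaving out 1 library gave 1 to 2 genes lower. In the interaction, the count called higher was 1 with library totals, no filter or limma on log2(FPKM + 1), in place of 3, and 1 to 3 without 1 library. Replicate numbers did not pair the libraries, since same-numbered libraries had r between -0.0180 and 0.0238 for their deviations from the group means. The replicate block changed 4 calls: HsfB4b gained its call at P4 (log2 fold change -1.01), and HsfB4d at P3 (-0.97), HsfB4a between SP4 and SP3 (-3.85, adjusted p = 0.0546, edgeR) and HsfB4d in the interaction (1.12, adjusted p = 0.0771, edgeR) lost theirs.

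Sign changes concerned genes that were not called in that comparison, except for HsfB1 in the interaction. With library totals, the median of all genes moved to -0.11 in FP4 versus SP4 and to -0.12 in FP4 versus FP3, and to -0.15 in the interaction. HsfB4d then had -0.044 in FP4 versus SP4 (-0.077 to 0.22 without 1 library), and HsfB2b -0.092 in FP4 versus FP3. HsfB2b also had -0.013 with no filter, -0.0293 and -0.0309 with limma at pseudocounts of 1 and 0.1, and -0.031 to 0.063 without 1 library. Without 1 library, HsfB2a had -0.46 to 0.062 in SP4 versus SP3 and -0.34 to 0.21 in the interaction. HsfB4a had 0.76 (FPKM + 1) and 0.51 (FPKM + 0.1) in the interaction by limma, and -0.98 to 0.37 without 1 library. HsfB1 had 0.11 in the interaction with limma on log2(FPKM + 1). The added 1 exceeds the FPKM of HsfB1 in SP4 and SP3. Over all genes tested, limma on log2(FPKM + 1) called 2493 genes in FP4 versus SP4, 2381 in FP3 versus SP3, 1924 in FP4 versus FP3 and 2016 in SP4 versus SP3, against 5494, 5259, 4731 and 4639 with edgeR, and 1356 against 2606 in the interaction. In the interaction 33.0% of calls were higher with edgeR, 45.8% with limma on log2(FPKM + 1) and 50.4% on log2(FPKM + 0.1). Of 32 calls of the 10 genes, 27 held whichever library was left out. The alternatives planned for open chromatin at these genes (a peak score of at least 100, an overlap of at least 100 bp) were not run, because no MSU7 annotation was used. Few counts limit HsfB1 in SP3, HsfB4a at P4 and HsfC1a in SP4.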
